A study of Mus musculus with 29 samples.

Results

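The genes described here make, bind, reduce and degrade retinoids, the vitamin A derivatives: Aldh1a1, Aldh1a2, Aldh1a3, Adh7, Dhrs3, Crabp1, Crabp2, Rarb and Cyp26b1. They are 9 of the 56953 rows of the deposited count table, found by their Ensembl identifiers. They were chosen from results of these same data, in which Aldh1a2 and Crabp1 were among the genes that differed most between the fat depots, so the differences between depots are given for these 9 genes as a description without a test. The data were bulk RNA-seq libraries of the crude stromal vascular fraction (SVF), the cells left when fat is digested and the floating adipocytes are removed. SVF of inguinal white adipose tissue (iWAT, a subcutaneous depot) or perigonadal white adipose tissue (pgWAT, a visceral depot) of adult C57BL6/J mice was grown in 96-well format for 4 days in PM1 medium with 1 nM basic FGF (bFGF), and all 29 libraries share that medium, that growth factor and that strain. The groups were iWAT from females (9 libraries), iWAT from males (10), pgWAT labelled female (6) and pgWAT labelled male (4). The study's methods give other group sizes for these libraries, and the labels were followed here. No library was untreated or uncultured. The study describes the replicates as technical ones from a few independent experiments per depot. The labels name a well for each library but not the animal, the pool of animals or the experiment, so the p-values below rest on variation among technical wells and are too small for statements about animals or experiments. Row letters of the well names run to P, beyond those of a 96-well plate, and the study prepared the libraries in a larger plate format. The well names are therefore read as positions on the library plate, not the culture plate. Each culture was a mixture of cell types, and in such bulk samples fewer cells of a type and less RNA per cell cannot be told apart.

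Retinol enters cells through the receptor STRA6 and is oxidized in a reversible step to retinaldehyde by retinol and alcohol dehydrogenases such as ADH7. DHRS3 runs that step backward, from retinaldehyde to retinol, whereas ALDH1A1, ALDH1A2 and ALDH1A3 oxidize retinaldehyde irreversibly to retinoic acid. Retinoic acid is bound in the cytoplasm by CRABP1 and CRABP2, activates the nuclear receptors RARA, RARB and RARG paired with RXR proteins, and is degraded by the CYP26 enzymes. Rarb, Dhrs3 and the Cyp26 genes are known as genes that retinoic acid itself induces, and Aldh1a2 is known from the mesothelium, the epithelial sheet that covers visceral fat and other organs.

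The stretch of promoter before the start site is shown for 5 of the genes, because the results turn on Aldh1a2, Crabp1, Adh7 and Aldh1a1 and because Rarb carries the textbook retinoic acid response element. RefSeq sequences on GRCm38.p6 were at hand for 7 of the 9 genes, not for Aldh1a3 and Crabp2. Each line gives the 250 bases before the annotated start in the gene's own direction. Capitals mark retinoid receptor half-sites (the hexamer AGGTCA, its variant AGTTCA, the hexamer GGGTCA and its variant GGTTCA, on either strand), except in Crabp1, where they mark the GC box GGGCGG on either strand. In Rarb the 5 bases between the paired half-sites are in capitals too. The Aldh1a2 stretch held neither. The 5 stretches lie on the plus strand at chr9:71215539-71215788 (Aldh1a2), chr9:54764498-54764747 (Crabp1), chr3:138217523-138217772 (Adh7) and chr19:20601718-20601967 (the more 3′ of 2 Aldh1a1 starts), and on the minus strand at chr14:16575477-16575726 (Rarb).
Aldh1a2: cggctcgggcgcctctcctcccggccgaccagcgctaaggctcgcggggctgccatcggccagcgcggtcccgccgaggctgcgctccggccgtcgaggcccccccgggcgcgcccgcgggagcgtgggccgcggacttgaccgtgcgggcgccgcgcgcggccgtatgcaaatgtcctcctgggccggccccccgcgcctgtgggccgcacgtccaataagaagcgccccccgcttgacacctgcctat
Crabp1: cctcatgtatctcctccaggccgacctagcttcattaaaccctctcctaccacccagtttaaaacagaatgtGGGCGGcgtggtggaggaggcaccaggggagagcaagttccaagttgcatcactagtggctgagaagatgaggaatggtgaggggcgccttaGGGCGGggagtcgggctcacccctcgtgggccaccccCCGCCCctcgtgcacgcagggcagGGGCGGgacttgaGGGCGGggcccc
Adh7: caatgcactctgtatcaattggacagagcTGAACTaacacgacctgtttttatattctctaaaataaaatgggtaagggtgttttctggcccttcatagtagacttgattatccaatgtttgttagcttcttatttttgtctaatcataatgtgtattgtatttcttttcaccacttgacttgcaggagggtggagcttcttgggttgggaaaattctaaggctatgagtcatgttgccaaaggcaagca
Aldh1a1: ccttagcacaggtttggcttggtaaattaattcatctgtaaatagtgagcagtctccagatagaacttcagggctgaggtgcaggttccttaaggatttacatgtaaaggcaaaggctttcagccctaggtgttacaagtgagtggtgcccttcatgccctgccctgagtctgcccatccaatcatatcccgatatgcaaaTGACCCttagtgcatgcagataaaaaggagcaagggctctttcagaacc
Rarb: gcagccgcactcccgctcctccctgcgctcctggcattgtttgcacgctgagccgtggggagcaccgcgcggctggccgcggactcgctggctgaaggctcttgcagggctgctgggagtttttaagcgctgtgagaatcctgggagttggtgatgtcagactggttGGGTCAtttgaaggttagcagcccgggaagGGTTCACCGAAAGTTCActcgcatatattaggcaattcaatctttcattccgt

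In Rarb, half-sites stood in direct repeat with 5 bases between them (half-site, NNNNN, half-site), at positions -53 to -37 relative to the start, an arrangement called DR5 that retinoic acid receptors are known to bind. A DR5 of these half-sites was found in 29 of 32851 such promoters (0.0883%), and among the 7 genes with a sequence only in Rarb. A single half-site, which any DR5 also contains, stood in 38.6% of all promoters and was present before Rarb, Adh7 and the more 3′ Aldh1a1 start. The Crabp1 stretch held 5 GC boxes, a motif found in 32.7% of promoters, and the Aldh1a2 stretch was 77.6% G or C, above 97.7% of all promoters. These matches describe the letters in the windows only.

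Library totals ran from 315316 to 1102234 counts, so that 3 counts, the floor used for a gene with no counts, stood for 2.58 to 9.76 CPM (counts scaled to a common library size with TMM factors), and intervals from counts cover counting error only. The transcripts Xist, made by the inactive X chromosome of females, and Ddx3y, Eif2s3y, Uty and Kdm5d, from the Y chromosome, matched the labelled sex in all 19 iWAT libraries but not in 5 of the 10 pgWAT libraries. Labelled male replicates 2 and 4 held 24 and 60 Xist counts with 1 and 0 Y counts, labelled female replicates 2 and 3 held 0 Xist counts with 23 and 26 Y counts, and labelled female replicate 1 held both, with 7 and 10. These 5 are the pgWAT libraries whose well names lie in columns 9 and 10, and the other 5 lie in columns 7 and 8, so in pgWAT the mismatch and the well column cannot be told apart. Results that rest on these libraries are given with and without them, and pgWAT sexes are called labelled sexes. Fibroblast markers were abundant in every library (summed CPM of 6 genes 6387 to 22688), and macrophage markers were present throughout (614 to 7757 over 6 genes).

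Per kilobase of the longest annotated transcript, the order of the mean levels differed between the depots. In iWAT the level of Crabp1 (898 ± 674 CPM per kilobase, SD, n = 19) was followed by Dhrs3 (40.3 ± 14.3), Aldh1a1 (14.3 ± 4.91), Adh7 (10.8 ± 3.15), Aldh1a3 (4.48 ± 4.83), Crabp2 (1.64 ± 2.44), Aldh1a2 (1.22 ± 1.03), Rarb (0.797 ± 1.57) and Cyp26b1 (0.480 ± 0.368). In pgWAT Dhrs3 stood first (153 ± 74.5, n = 10), then Aldh1a1 (42.8 ± 7.38), Aldh1a2 (40.2 ± 18.0), Crabp1 (16.8 ± 7.25), Aldh1a3 (3.43 ± 3.11), Crabp2 (3.25 ± 3.04), Rarb (1.56 ± 1.30), Cyp26b1 (0.541 ± 0.662) and Adh7 (0.0933 ± 0.295). Aldh1a1 and Aldh1a3 serve the same reaction as Aldh1a2. In both depots each gene from Aldh1a3 downward lay within 1 SD of its neighbour in that order, as did Aldh1a1 and Adh7 in iWAT and Aldh1a1 and Aldh1a2 in pgWAT.

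**Figure D1:**
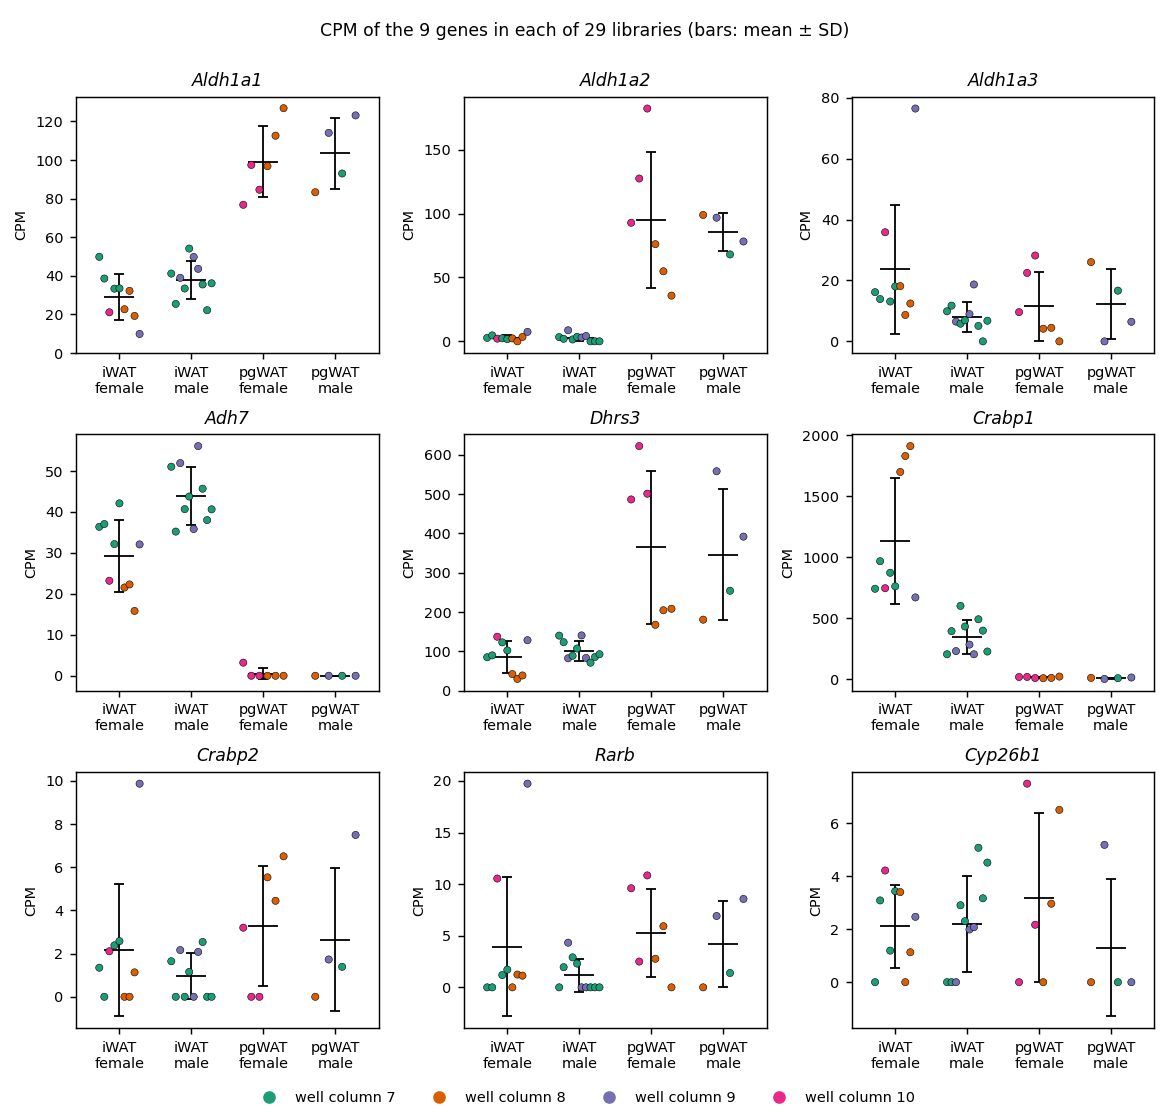
CPM of the 9 genes (one panel each, linear axis) in every library by depot and labelled sex, with points coloured by the column of the well name and bars for mean ± SD (9, 10, 6 and 4 libraries). Aldh1a1, Aldh1a2 and Dhrs3 lie higher in all pgWAT libraries than in any iWAT library, Adh7 and Crabp1 lie lower in all of them, and Crabp2, Rarb and Cyp26b1 stay at a few counts.

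The depots did not overlap for 5 of the 9 genes, Aldh1a1, Aldh1a2, Dhrs3, Adh7 and Crabp1, beside 2.13% of the 8853 genes tested. As the genes were chosen with this contrast in view, nothing is read from that count. The 3 genes higher in pgWAT code for enzymes that handle retinaldehyde, and of the 2 that were lower one makes retinaldehyde from retinol and the other binds retinoic acid.

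Aldh1a2 (ENSMUSG00000013584.6), the main retinoic acid producing enzyme of the embryo, was near the limit of detection in iWAT and present in every pgWAT library. In pgWAT labelled male its values were 98.9, 96.8, 68.0 and 78.2 CPM for replicates 1 to 4, and in pgWAT labelled female they ran from 35.8 through a median of 84.4 to 182 CPM. iWAT females ran from 0 through 2.38 to 7.40 CPM and iWAT males from 0 through 2.47 to 8.66 CPM, with at most 4 counts in any library and 4 of 19 libraries at 0. The lowest pgWAT library was thus above the highest iWAT library. Over all libraries 502 counts in pgWAT stood against 34 in iWAT, and the fitted difference was 4.96 on the log2 scale (SE 0.262), higher in pgWAT. It was 5.06 (SE 0.359) between the female groups and 4.85 (SE 0.383) between the male groups, and 4.56 without the 5 pgWAT libraries that go against their labels.

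Within pgWAT, Aldh1a2 varied between wells, and all 3 libraries labelled female in column 10 (92.8 to 182 CPM) exceeded all 3 in column 8 (35.8 to 76.1 CPM). The genes whose log2 CPM followed Aldh1a2 most closely over the 10 pgWAT libraries, of 8072 compared, were Srpx (Pearson's r = 0.937), C1galt1 (0.928) and Cers6 (0.926). These libraries share well columns and differ in depth, and the coefficients are a description. Mesothelial markers moved with the depot as Aldh1a2 did. Their summed CPM over 7 genes was 59.0 to 189 in pgWAT and 1.96 to 98.7 in iWAT. Of the 4 of them that could be tested, Upk3b (log2 difference 7.22), Upk1b (5.95) and Wt1 (4.88) were higher in pgWAT and Krt19 was lower (-1.43) by edgeR (FDR 0.00787 or less). Upk3b, Upk1b and Wt1 had iWAT group means of 0 to 0.52 CPM. They passed the filter on low counts only through pgWAT, so their calls are a description. Msln, Upk3b, Upk1b, Lrrn4 and Muc16 were at 0 in all iWAT male libraries, but Muc16 was also at 0 in all pgWAT labelled female libraries. The iWAT sums were mostly Krt19, a keratin that other epithelia also express, with a mean of 27.9 of 30.9 CPM in females and 19.9 of 20.4 CPM in males. Of the other markers tested, 5 of 6 fibroblast, 3 of 5 macrophage and 2 of 5 endothelial genes were higher in pgWAT. So were 2 of 3 smooth muscle and 1 of 4 epithelial genes, beside 20.1% of all genes tested. The mural and adipocyte markers (0 of 1 each) were not called. The endothelial marker Kdr had means of 7.22 and 7.64 CPM in iWAT females and males and of 19.5 and 13.5 CPM in pgWAT labelled female and male. Because it was low in iWAT, its call is a description. In pgWAT labelled female replicates 1 to 6 the mesothelial sums were 89.6, 122, 139, 189, 157 and 172 CPM. Aldh1a2 there was 92.8, 127, 182, 76.1, 54.8 and 35.8 CPM, the first 3 in column 10 and the others in column 8. In labelled male replicates 1 to 4 the sums were 59.0, 86.4, 79.1 and 63.2 CPM, beside 98.9, 96.8, 68.0 and 78.2 CPM of Aldh1a2. The part of mesothelial cells in the Aldh1a2 difference was not tested.

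Aldh1a1 (ENSMUSG00000053279.9), the retinaldehyde dehydrogenase best known from adult tissues, was detected in all 29 libraries. Its pgWAT labelled male values were 83.3, 114, 93.0 and 123 CPM, and labelled female ran from 76.8 through 97.1 to 127 CPM. In iWAT it ran from 9.87 through 32.2 to 49.8 CPM in females and from 22.2 through 37.5 to 54.1 CPM in males. Both labelled sexes of pgWAT were therefore above every iWAT library, and the fitted difference of 1.57 on the log2 scale (SE 0.146), 2.97-fold, was the smallest of the 5 genes. It was 1.51 without the 5 mismatched pgWAT libraries. A close copy, Aldh1a7, shares 5.7% of the distinct 31-base words of Aldh1a1 transcripts (GENCODE M21), and with 20 counts in iWAT and 15 in pgWAT it held far fewer counts than the 440 and 583 of Aldh1a1.

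Dhrs3 (ENSMUSG00000066026.15), the retinaldehyde reductase, varied widely within pgWAT. Labelled male replicates gave 181, 558, 254 and 392 CPM, and labelled female ran from 167 through 347 to 622 CPM. iWAT ran from 29.7 through 89.5 to 137 CPM in females and from 71.1 through 90.6 to 140 CPM in males. The depots stayed apart, with a difference of 1.93 on the log2 scale (SE 0.217), 3.81-fold. Without the 5 mismatched pgWAT libraries it was 1.12 (SE 0.216), since these 5 held the 5 highest values, 392 to 622 CPM against 167 to 254 CPM in the others.

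Adh7 (ENSMUSG00000055301.9), an alcohol dehydrogenase with high activity toward retinol, was a gene of the iWAT cultures. It ran from 15.8 through 32.1 to 42.1 CPM in iWAT females and from 35.2 through 42.2 to 56.1 CPM in iWAT males, with at least 11 counts in every library. In pgWAT all 4 labelled male libraries and 5 of 6 labelled female libraries were at 0, and labelled female replicate 1 held 1 count. The 452 counts of iWAT against 1 of pgWAT gave a ratio of 204, with an exact 95% counting interval of 36.4 to 8063. The single pgWAT count came from one of the libraries against their labels, so the 5 others were all at 0. Of its 31-base words 2.16% occur in 1 other annotated gene, 0610031O16Rik.

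Crabp1 (ENSMUSG00000032291.9), the cytoplasmic retinoic acid binder linked to its turnover, had the most counts of the 9 genes. It ran from 671 through 873 to 1911 CPM in iWAT females and from 206 through 340 to 602 CPM in iWAT males. In pgWAT labelled male replicates it was 12.2, 3.46, 9.72 and 15.0 CPM, and in labelled female it ran from 9.68 through 15.5 to 22.8 CPM, with 2 to 14 counts a library. The lowest iWAT library was about an order of magnitude above the highest pgWAT library. The fitted difference was -5.64 on the log2 scale (SE 0.297), 49.8-fold lower in pgWAT. It was -6.26 (SE 0.381) between females and -5.02 (SE 0.439) between males, and -5.70 without the 5 mismatched libraries.

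Of the other genes, Aldh1a3 (ENSMUSG00000015134.16), the retinaldehyde dehydrogenase known from epithelia, overlapped between depots. It ran from 8.67 through 16.2 to 76.5 CPM in iWAT females, from 0 through 6.84 to 18.7 CPM in iWAT males and from 0 through 7.02 to 28.2 CPM in pgWAT labelled female, and was 26.0, 0, 16.7 and 6.42 CPM in pgWAT labelled male. Its depot difference was -0.21 on the log2 scale (SE 0.427). Crabp2, the binder that hands retinoic acid to its receptors, held 17 counts in iWAT and 19 in pgWAT, Rarb 25 and 28, and Cyp26b1 26 and 11, and these 3 genes did not pass the filter on low counts. Per unit of depth that is a ratio of pgWAT to iWAT of 2.48 for Crabp2 (exact 95% counting interval 1.22 to 5.08), 2.49 for Rarb (1.40 to 4.44) and 0.939 for Cyp26b1 (0.419 to 1.97). Individual libraries held at most 7 Crabp2, 8 Rarb and 4 Cyp26b1 counts, and these intervals leave out the spread between wells. Of the 28 pgWAT Rarb counts the 5 libraries against their labels held all but 7. Without them, in a calculation added after the data had been seen, the ratio was 1.18 for Rarb (0.430 to 2.80), 2.47 for Crabp2 (1.01 to 5.72) and 0.647 for Cyp26b1 (0.164 to 1.86). Rarb counts are uncertain in another way, because 35.7% of the 31-base words of its annotated transcripts are shared with other genes, mostly with its neighbour Top2b.

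The comparison of the sexes within iWAT was not used to choose the genes and could be tested (male minus female, edgeR quasi-likelihood test with Benjamini-Hochberg adjustment). Aldh1a2 had passed the filter through its pgWAT counts and, with 34 counts over 19 iWAT libraries, could hardly have been called here. Of the other 5 testable genes 4 had an unadjusted p below 0.05, beside 1413 of all 8853 genes tested. Of these 5 genes 1, Crabp1, passed an FDR of 0.05, beside 3.22% of all genes tested called in either direction (1.08% higher in males and 2.13% lower). Crabp1 was lower in males by a log2 difference of -1.71 (SE 0.221, FDR 4.68e-06), a 3.26-fold higher level in females (1134 ± 520 CPM, SD, n = 9) than in males (348 ± 137 CPM, n = 10). All 10 male libraries lay below the lowest female library, a separation seen for 0.52% of genes tested. The call was made in all 8 planned or added alternatives and in each of the 29 fits without 1 library, and in column 7 alone, with 4 female libraries at 742 to 968 CPM and 7 male libraries at 206 to 602 CPM, the difference was -1.10 (SE 0.210, FDR 0.00488 by edgeR).

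Adh7 was 43.9 ± 7.17 CPM in males and 29.2 ± 8.79 CPM in females (log2 difference 0.58, SE 0.186, edgeR FDR 0.0838), and 5 of 10 male libraries exceeded all female ones. With the well column in the fit that difference was 0.26 (FDR 0.495 by edgeR), and by limma-voom it passed (FDR 0.0251). Aldh1a3 was 8.03 ± 4.89 CPM in males and 23.6 ± 21.3 CPM in females (-1.38, SE 0.473, edgeR FDR 0.107). It passed with DESeq2 (FDR 0.044), without the filter on low counts (FDR 0.0156, edgeR) and without the 5 mismatched pgWAT libraries (FDR 0.0272, edgeR). Aldh1a1 (0.40, SE 0.192, edgeR FDR 0.299) and Dhrs3 (0.28, SE 0.278, FDR 0.685) were not called either.

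Epithelial markers moved with the sex of the iWAT cultures. Over 8 genes their summed CPM was 48.6 to 2075 in females and 0 to 8.31 in males, and Epcam, Krt5 and Krt14 were at 0 in every male library. All 4 that could be tested were lower in males (edgeR FDR 0.00365 or less), beside 2.13% of all genes tested. With iWAT male means of 0 to 1.43 CPM they passed the filter on low counts through other groups, so these calls are a description. iWAT female replicate 9, with the sum of 2075 CPM, also had the highest Aldh1a3 (76.5 CPM, 31 counts), Rarb (19.7 CPM, 8 counts) and Crabp2 (9.87 CPM, 4 counts) of all libraries, and iWAT female replicate 3, with the next highest sum of 371 CPM, had the next highest Aldh1a3 (35.9 CPM) and 10.5 CPM of Rarb. The same replicate 9 had the lowest Crabp1 of the females (671 CPM) and the lowest Aldh1a1 of all libraries (9.87 CPM). Macrophage sums were 614 to 1091 CPM in females and 1414 to 2408 CPM in males, and adipocyte sums 24.7 to 53.9 CPM and 114 to 217 CPM. By the same test 2 of 5 macrophage, 1 of 5 endothelial and 1 of 1 adipocyte markers were higher in males, beside 1.08% of all genes tested. Lower in males were 3 of 3 smooth muscle and 2 of 6 fibroblast markers, beside 2.13% of all genes. The smooth muscle marker Cnn1 (mean 2.96 CPM in males, 16.5 CPM in females) passed the filter on low counts through other groups than the males, so its call is a description. Mesothelial (0 of 4) and mural (0 of 1) markers were not called. The part of these cells in the Crabp1 and Aldh1a3 values was not tested.

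**Figure D2:**
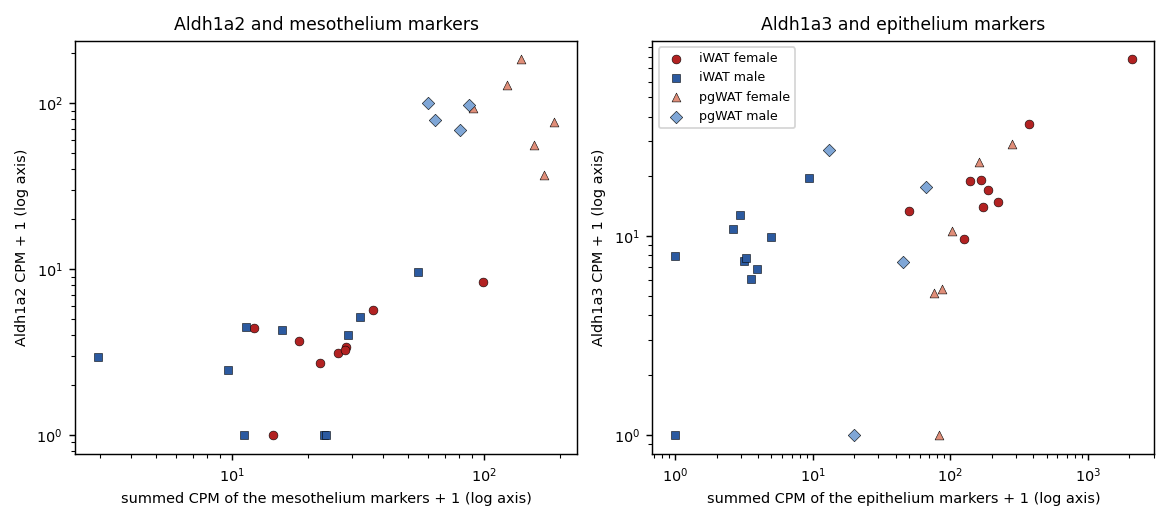
Left, Aldh1a2 against the summed CPM of 7 mesothelium markers, and right, Aldh1a3 against that of 8 epithelium markers, with 1 added to both values and log axes, 1 point per library. pgWAT libraries (59.0 to 189 summed mesothelial CPM) sit above all iWAT libraries (1.96 to 98.7, mostly Krt19) in Aldh1a2, and iWAT female replicate 9 stands at the top right of the epithelial panel.

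Adh7, with 1 count in all of pgWAT, could not be called between pgWAT labelled male and labelled female. Of the other 5 testable genes 0 were called by edgeR, DESeq2 or limma-voom. By edgeR 0 of them had an unadjusted p below 0.05, beside 739 of all 8853 genes tested. Over all genes the same contrast called 0.0113%. Both labelled groups hold libraries that go against their labels. As labelled, this contrast therefore cannot measure sex, and nothing is read from its lack of calls. The Crabp1 difference was -0.47 (95% interval -1.62 to 0.68), that of Dhrs3 -0.07 (-0.78 to 0.65), that of Aldh1a2 -0.16 (-0.78 to 0.47), that of Aldh1a3 0.10 (-1.30 to 1.51) and that of Aldh1a1 0.06 (-0.40 to 0.53), on the log2 scale. Without the 5 mismatched libraries the Aldh1a3 difference was 2.515 (SE 0.856, edgeR FDR 0.0867), outside that interval but not called. Those of Crabp1 (-0.32), Dhrs3 (0.15), Aldh1a2 (0.50) and Aldh1a1 (-0.36) were not called either. The difference between labelled sexes was compared between depots by an interaction term, which rests on the same mixed pgWAT groups and has the same limit. It called 0 of the same 5 genes by the 3 tools, beside 0.181% of all genes. It gave 0 of the 5 at an unadjusted p below 0.05 (edgeR), beside 772 of all 8853 genes tested. For Crabp1 it was 1.23 (95% interval -0.03 to 2.50, edgeR FDR 0.585), so a sex difference limited to iWAT was not shown. Without the 5 mismatched pgWAT libraries the interaction called 1 gene, Aldh1a3 (3.88, SE 0.928, edgeR FDR 0.0133). Its pgWAT side then rested on 3 female libraries at 0 to 4.45 CPM and 2 male libraries at 26.0 and 16.7 CPM.

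The column of the well name, a position on the library plate, moved with 2 of the genes. In the fit with the column of the well name beside the 4 groups, the column term itself was tested, a test added after the data had been seen. By it Dhrs3 (edgeR FDR 6.96e-06) and Crabp1 (FDR 0.0154) were called, 2 of 6 genes beside 5.5% of all genes. Relative to column 7, Dhrs3 was -1.24 in column 8, 0.25 in column 9 and 0.33 in column 10 on the log2 scale, and Crabp1 was 0.88, -0.52 and 0.14. The 3 iWAT female libraries of column 8 had 29.7 to 42.0 CPM of Dhrs3, below the 84.9 to 123 CPM of the 4 in column 7 and the 128 and 137 CPM of those in columns 9 and 10. The same 3 libraries had the highest Crabp1 of all, 1699 to 1911 CPM against 671 to 968 CPM in the other 6 iWAT females. In pgWAT the Dhrs3 values of columns 7 and 8 were all below those of columns 9 and 10.

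**Figure D3:**
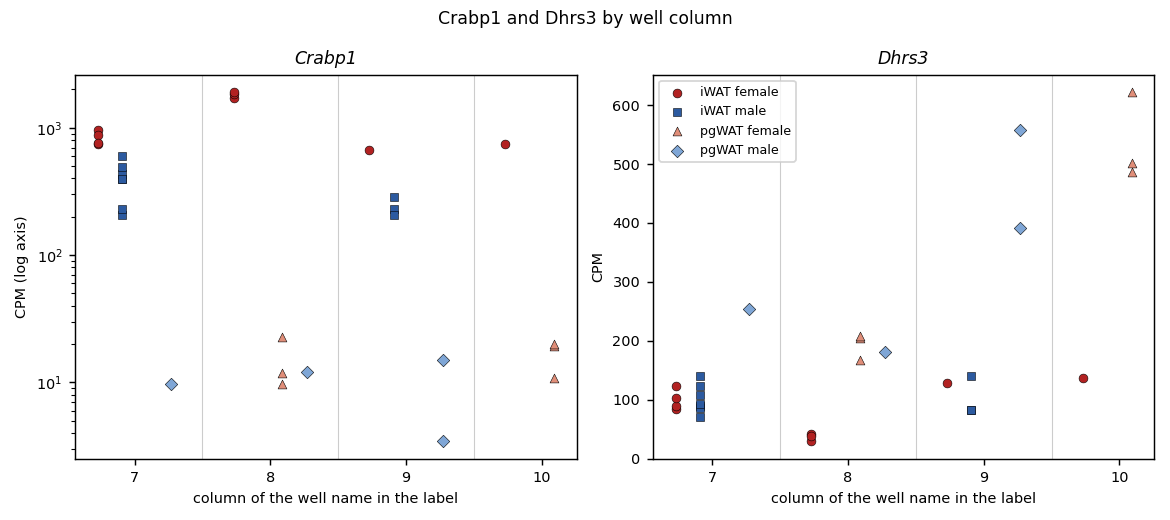
CPM of Crabp1 (left, log axis) and Dhrs3 (right, linear axis) by the column of the well name, 1 point per library, with markers for depot and labelled sex. iWAT females of column 8 are highest in Crabp1 (1699 to 1911 CPM) and lowest in Dhrs3 (29.7 to 42.0 CPM), and pgWAT libraries of columns 9 and 10 are highest in Dhrs3.

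The depot difference in 1 column alone kept its direction for the 5 genes. Between the 3 pgWAT and 3 iWAT female libraries of column 8 it was -7.10 for Crabp1, 2.37 for Dhrs3, 4.80 for Aldh1a2 and 2.16 for Aldh1a1 on the log2 scale. Between the 2 pgWAT labelled male and 3 iWAT male libraries of column 9 it was -4.51 for Crabp1, 2.17 for Dhrs3, 4.17 for Aldh1a2 and 1.41 for Aldh1a1, with pgWAT libraries there that go against their labels. Adh7 was at 0 in the pgWAT libraries of both columns. The genes whose log2 CPM followed Crabp1 most closely over the 19 iWAT libraries were Cxcl12 (Pearson's r = 0.935), Loxl2 (0.900) and Tgfbr2 (0.888), as a description over libraries that share sex groups and well columns.

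The rest of the retinoid pathway was read from a list of 48 other genes, of which 20 passed the filter. Between depots 9 of these 20 were called by edgeR, beside 38.1% of all genes tested. In pgWAT 7 were higher, beside 20.1% of all genes, and 2 were lower, beside 17.9%. The median log2 difference of the 20 was 0.09 and that of all genes 0.01. The share of called genes in the list was thus near that of all genes. For retinol uptake and storage both testable genes were called. Scarb1, a carotenoid and lipoprotein receptor, was higher in pgWAT (36.0 ± 6.87 CPM, n = 10, against 16.6 ± 10.2 CPM, n = 19, log2 difference 1.08, edgeR FDR 0.000208). Stra6, the retinol receptor, was lower, with 2 counts in all of pgWAT against 135 in iWAT. That is a ratio of 30.4 (exact 95% counting interval 8.26 to 254, edgeR FDR 3.57e-06). Both pgWAT counts were in labelled female replicate 1, which goes against its label. Stra6 passed the filter on low counts only through the iWAT females, so its call is a description.

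Of the 5 testable genes for retinol oxidation, Adh1, another alcohol dehydrogenase, was called and higher in pgWAT (77.2 ± 50.6 against 32.5 ± 17.3 CPM, 1.20, edgeR FDR 0.00188), while Rdh11, Rdh13, Dhrs4 and Adh5 were not called (-0.18 to 0.09). Cyp1b1, a cytochrome P450 that can also oxidize retinoids, was higher (263 ± 190 against 75.4 ± 19.6 CPM, 1.77, edgeR FDR 3.07e-07). None of the 3 further degradation genes (Cyp26a1, Cyp26c1, Cyp2s1) passed the filter. The 5 testable genes for receptors and a corepressor, Rara, Rarg, Rxra, Rxrb and Ncor1, gave 0 calls, with differences from -0.36 to 0.48. Fabp5, which can carry retinoic acid to PPARD, was higher (1.06, edgeR FDR 0.000235) and Ppard was not called (0.09).

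Among the 5 testable genes known to respond to retinoic acid, 3 were higher in pgWAT and 1 was lower. Tgm2, a transglutaminase, had 74.6 ± 26.5 CPM in pgWAT and 17.8 ± 10.9 CPM in iWAT (2.05, edgeR FDR 1.78e-09). The homeobox genes Meis1 (1.00, FDR 1.31e-05, edgeR) and Meis2 (1.13, FDR 9.37e-05, edgeR) were higher as well, and Nr2f2, an orphan nuclear receptor, was lower (-0.69, FDR 0.0179, edgeR). Rarres2, which codes for chemerin, was not called (0.34). Without the 5 mismatched libraries 7 genes were called, Adh1 and Nr2f2 no longer, and with the well column in the fit 7 were called, Fabp5 and Nr2f2 no longer. These genes have many other regulators, and the mesothelial markers given above moved with the same contrast. The part of retinoic acid or of mesothelial cells in these differences was not tested.

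Between the sexes of iWAT 2 of the 20 genes were called, both lower in males, beside 2.13% of all genes tested. Stra6 was 4.31 ± 3.37 CPM in males and 16.4 ± 5.59 CPM in females (-2.01, edgeR FDR 0.00353). It passed the filter on low counts only through the females, where it was high, so its call is a description. Rarres2 was 130 ± 40.6 CPM in males and 312 ± 250 CPM in females (-1.28, edgeR FDR 0.0135). With the well column in the fit, and in column 7 alone, Stra6 was still called, Rarres2 was not, and Cyp1b1 and Fabp5 were. Rarres2 was also not called by limma-voom or without iWAT female replicate 8, which left Stra6 as the 1 call. Stra6 and Crabp1 had the same order of the groups, iWAT female, iWAT male, then pgWAT.

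**Figure D4:**
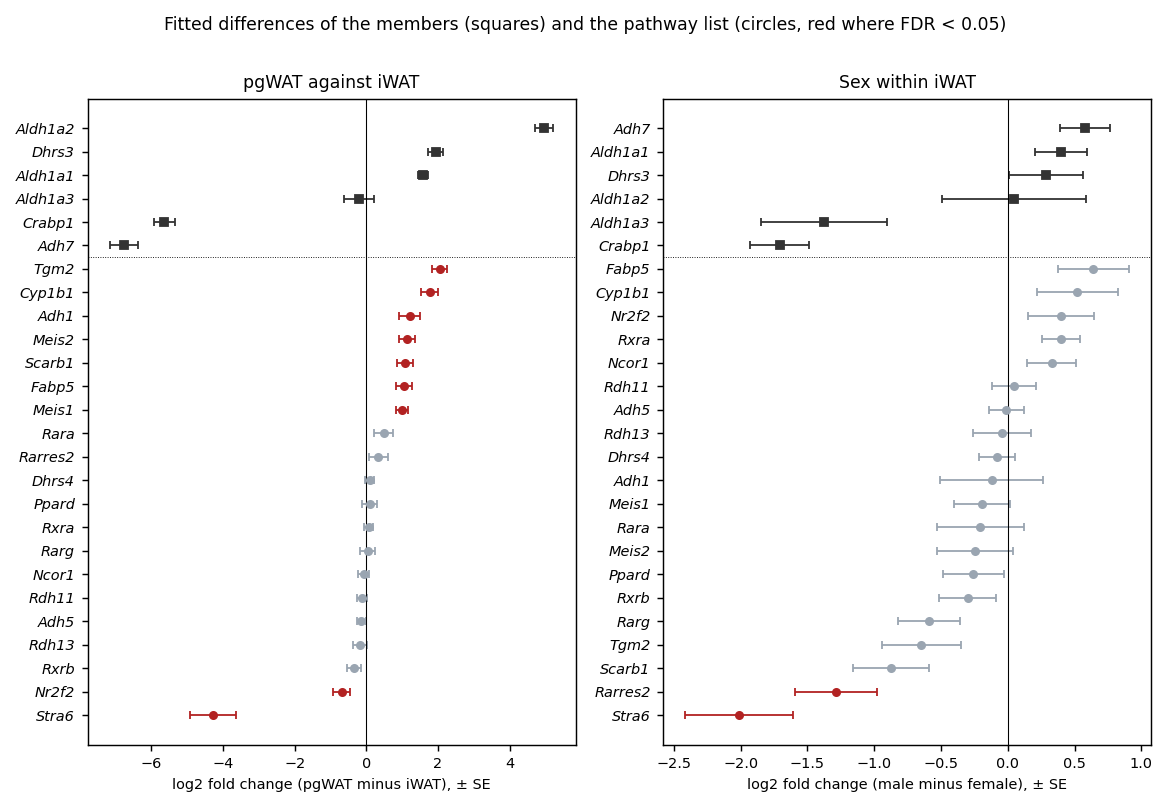
Fitted log2 differences ± SE between depots (left, pgWAT minus iWAT) and between the sexes of iWAT (right, male minus female) for the 6 testable genes of the set (squares, no test shown) and 20 other pathway genes (circles, red where the edgeR FDR was below 0.05). Between depots Aldh1a2 (4.96) and Crabp1 (-5.64) lie far outside the range of the pathway genes other than Stra6. The set was chosen with these large differences known, so nothing is read from that. The Adh7 value against 1 count depends on the prior count of the fit.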

How the data were processed

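RNA of 29 cultures was made into Smart-seq3 libraries. Per the labels the authors used STAR 2.7.10a and Salmon 1.9.0 on GRCm39, and the authors deposited one table of expected counts (estimated counts that need not be whole) per Ensembl gene, which pools reads with and without molecular identifiers. Wells with few detected genes had been removed before deposit. Counts were rounded to whole numbers, and symbols were taken from a table of gene names (52029 of 56953 rows, 91.4%). All columns of the table were used.

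In edgeR 4.0.16 (R 4.3.3), genes were filtered with filterByExpr over the 4 groups (8853 left), scaled with TMM and fitted with 1 mean per group over all 29 libraries. Quasi-likelihood tests were two-sided, with Benjamini-Hochberg adjustment over all genes tested and a threshold of 0.05. The script was tested on simulated counts with known changes. Alternatives were RLE factors, total counts, no filter, DESeq2 1.42.0, limma-voom (limma 3.58.1), the well column as a factor, single columns, leaving out the 5 pgWAT libraries that go against their labels, and leaving out each library. Chi-square tests over 102 pairs of libraries of one group (1.57 to 14.1 per degree of freedom) found no duplicated library.

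The genes and lists were chosen with earlier results of these data known. Named genes are the 9 members, pathway genes with an FDR below 0.05 between depots or between iWAT sexes, the 3 genes most correlated with Aldh1a2 in pgWAT and with Crabp1 in iWAT (mean log2 CPM of at least 4, prior count 2), Aldh1a7 and the sex-linked genes; markers enter as counts and sums, and Upk3b, Upk1b, Wt1 and Krt19 were named after their values were seen. Transcript lengths and shared 31-base words came from GENCODE M21, promoters from RefSeq (GRCm38.p6), another build than that of the counts, so no coordinate was carried over. Some genes of the pathway list first drawn up are not reported here.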

Additional observations from a re-analysis of the deposited data

Results flagged for a closer look

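In 5 of 35 sets of 1 gene in 1 group of 4 to 10 libraries, 1 library stood far from the others by Dixon's criterion. Chance alone meets it in about 1 of 20 sets of normal values. Sets of few counts are not normal, so that rate does not apply to them and nothing is read from the 5. Aldh1a3 in iWAT female replicate 9 was 76.5 CPM (31 counts), and Crabp2 in the same library was 9.87 CPM (4 counts); this is the library with the highest sum of epithelial markers, 2075 CPM, and the part of those cells was not tested. Aldh1a2 in iWAT male replicate 3 was 8.66 CPM (4 counts). Cyp26b1 in pgWAT labelled male replicate 2 was 5.19 CPM (3 counts) and Adh7 in pgWAT labelled female replicate 1 was 3.20 CPM (1 count). Each was the only library of its group above 0 for that gene, which always meets the criterion. Both are libraries whose sex-linked transcripts go against the label.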

How the results depend on the processing

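The iWAT sex call of Crabp1 was made in every alternative, with log2 differences of -1.84 to -1.10 including the fits without 1 library. The number of the 9 genes called between iWAT sexes was 1, and 2 without the filter, by DESeq2 and without the 5 mismatched pgWAT libraries (Aldh1a3 and Crabp1 each time) and by limma-voom (Adh7 and Crabp1), with 1 to 2 in the fits without 1 library, the second being Adh7 (FDR 0.0448 by edgeR) without iWAT female replicate 5. The interaction called 1 gene without the 5 mismatched libraries and 0 otherwise. The column factor called 2, and 5 without the filter (Aldh1a2, Aldh1a3, Dhrs3, Crabp1 and Rarb), with 2 to 3 when 1 library was left out. Pathway calls between depots were 9 (7 to 10). Between iWAT sexes they were 2, 1 by limma-voom (Stra6) and 4 without the mismatched libraries (Stra6, Cyp1b1, Fabp5 and Rarres2), with 1 to 3 in the fits without 1 library.

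The depot difference of Dhrs3 moved from 1.93 to 1.12 without the mismatched libraries. Differences that changed sign were all uncalled. With the column as a factor these were Aldh1a1 (-0.44) and Crabp1 (0.14) between labelled pgWAT sexes, Aldh1a2 there (0.41) and in the interaction (0.29), and Dhrs3 between iWAT sexes (-0.0086). Without the mismatched libraries, pgWAT sex differences were -0.36 for Aldh1a1, 0.50 for Aldh1a2 and 0.15 for Dhrs3, and the Aldh1a2 interaction was 0.47. By limma-voom they were 0.0010 for Aldh1a2, -0.0471 for Aldh1a3 and 0.0124 for Dhrs3, and Aldh1a1 between iWAT sexes was -0.0787 in column 7 alone. Leaving out 1 library gave ranges across 0 for Aldh1a2 between iWAT sexes (-0.24 to 0.22), for pgWAT sexes of Aldh1a1 (-0.0522 to 0.15), Aldh1a2 (-0.31 to 0.14), Aldh1a3 (-0.49 to 0.62) and Dhrs3 (-0.39 to 0.16), and for the Aldh1a2 interaction (-0.38 to 0.0924); the cause was not tested.

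No paired analysis was possible because the labels carry no replicate numbers. At this depth Crabp2, Rarb and Cyp26b1 could not be tested, and differences between pgWAT sexes rest on labels that 5 of 10 libraries do not bear out.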
